A study of Oreochromis niloticus with 18 samples.

Results

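The haemoglobin genes and the red cell enzyme of haem synthesis were followed across the liver, thalamus-pituitary and cerebellum of tilapia (*Oreochromis niloticus*) exposed to thyroid hormones. Of the 26763 transcripts with a value in each of 18 RNA-seq libraries, 5 are described: HBG2 (ENSONIT00000001830), HBB (ENSONIT00000001866), HBM (ENSONIT00000001882), HBZ (ENSONIT00000024911) and ALAS2 (ENSONIT00000002722). They were chosen by their measured values for hormone against control, since the study had placed them among the transcripts changed by T2 or T3 in these same libraries. The comparison with control is therefore given as a description without a test. T2 against T3 and the contrasts between tissues were not the comparisons used for the choice and were tested. They draw on the same libraries, so these tests are not independent of the choice.

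Sexually undifferentiated juveniles aged 4 months were kept for 12 h in water with 25 nM T2 (diiodothyronine), in water with 25 nM T3 (triiodothyronine, which carries a further iodine on its outer ring), or without hormone as non treated controls. Each tissue had 2 libraries per treatment, numbered 1 and 2. A library of either central nervous system (CNS) tissue came from a pool of 4 fish, whereas no pool is described for liver. Treated groups held 8 fish each, so that libraries of different tissues may share animals.

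Haemoglobin is built from alpha-type and beta-type globin chains, each holding a haem group that binds oxygen. In human, where the symbols come from, HBB and HBG2 are beta-type chains of adult and foetal blood, HBZ is an embryonic alpha-type chain and HBM is a little used alpha-type gene. ALAS2 is the erythroid form of 5-aminolevulinate synthase, which catalyses the first and rate-limiting step of haem synthesis. Red cells of fish keep their nucleus and RNA in the circulation, so blood that remains in a dissected tissue contributes these transcripts. In bulk samples, fewer red cells and less globin RNA per cell cannot be told apart.

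Levels are in CPM, effective counts relative to the library's total and scaled by TMM factors, which adjust that total for differences in the make-up of the libraries. The levels use factors from all 18 libraries. Fitted differences between 2 treatments of a tissue use factors from their 4 libraries. They can therefore differ in size from the levels and, where small, in sign. The totals behind the levels ranged from 1568851 to 6585242 effective counts per library. The TMM factors were 0.523 to 0.649 in the hormone-treated livers, 0.344 to 0.361 in the control livers and 1.38 to 1.51 in the CNS, so liver levels depend on the scaling. The differences of liver from its controls and from the CNS are therefore also given by library total alone, with levels for some transcripts only. Markers of brain, such as SNAP25 and MAP2, summed to 2525 to 4112 CPM in the CNS libraries and to 2.04 to 38.5 CPM in liver. Markers of liver, such as the fibrinogen chains, summed to 36726 to 133684 CPM in liver libraries and to 14.8 to 33.3 CPM in the CNS. Markers of exocrine pancreas were also high in the liver libraries, at 37047 to 247298 CPM in sum, against 20.8 to 71.9 CPM in the CNS.

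By TMM scaling, HBG2, HBB, HBM and ALAS2 had a common pattern, with the control livers highest, the hormone-treated livers next and the hormone-treated CNS groups lowest. By library total alone the mean of each hormone-treated liver group was below those of both CNS control groups for all of these 4 transcripts. HBG2, a beta-type chain in human, measured 2228 and 2577 CPM in T2 livers, 2199 and 3100 CPM in T3 livers, and 5142 and 8929 CPM in control livers. Thalamus-pituitary levels of HBG2 were 810.5 and 1106 CPM with T2, 710.6 and 760.4 CPM with T3, and 2103 and 1007 CPM in controls. Cerebellar levels were 1032 and 1066 CPM with T2, 840.9 and 763.0 CPM with T3, and 1868 and 1402 CPM in controls. Both libraries of each hormone lay below both controls in liver and cerebellum. In the thalamus-pituitary the second T2 library lay above the second control.

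HBB, the other beta-type chain, measured 1821 and 2121 CPM in T2 livers, 1297 and 1983 CPM in T3 livers, and 4667 and 6550 CPM in control livers. In the thalamus-pituitary its levels were 549.2 and 588.5 CPM with T2, 556.3 and 474.8 CPM with T3, and 1323 and 921.3 CPM in controls. In the cerebellum they were 743.9 and 599.3 CPM with T2, 812.0 and 540.9 CPM with T3, and 1538 and 1268 CPM in controls. For HBB, no hormone library overlapped the controls of its tissue.

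HBM, an alpha-type chain in human, measured 2065 and 2220 CPM in T2 livers, 2101 and 2398 CPM in T3 livers, and 4093 and 7291 CPM in control livers. In the thalamus-pituitary its levels were 633.6 and 814.5 CPM with T2, 596.5 and 691.7 CPM with T3, and 1666 and 934.4 CPM in controls. In the cerebellum they were 830.2 and 767.3 CPM with T2, 723.7 and 716.6 CPM with T3, and 1498 and 1225 CPM in controls. As for HBB, every hormone library was below both controls of its tissue.

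ALAS2, the haem enzyme, measured 121.5 and 102.3 CPM in T2 livers, 105.8 and 121.5 CPM in T3 livers, and 219.1 and 353.3 CPM in control livers. In the thalamus-pituitary its levels were 39.5 and 54.1 CPM with T2, 37.0 and 36.2 CPM with T3, and 77.1 and 49.1 CPM in controls. In the cerebellum they were 36.9 and 38.5 CPM with T2, 38.4 and 36.1 CPM with T3, and 81.8 and 66.5 CPM in controls. As for HBG2, the second T2 library of the thalamus-pituitary was above the second control, and no other hormone library overlapped the controls.

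HBZ, the embryonic alpha-type chain of human, was close to the limit of counting in every library, with 0 to 11 rounded effective counts. In liver it had 5 and 3 counts with T2, 0 and 0 with T3, and 7 and 9 in controls. In the thalamus-pituitary it had 0 and 9 counts with T2, 5 and 6 with T3, and 5 and 11 in controls. In the cerebellum it had 1 and 11 counts with T2, 3 and 5 with T3, and 10 and 9 in controls. With T3 livers set to a floor of 3 counts per library, HBZ was 7.55-fold lower than the mean of the control livers. It was then 4.61-fold lower than the lower control. By library total alone these ratios were 5.03-fold and 2.97-fold. The control counts of 7 and 9 were taken as measured, so these ratios are not bounds. HBZ passed the filter on low counts in the fit across tissues and in the comparison of T3 with control in the thalamus-pituitary. It did so in no other main fit.

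**Figure D1:**
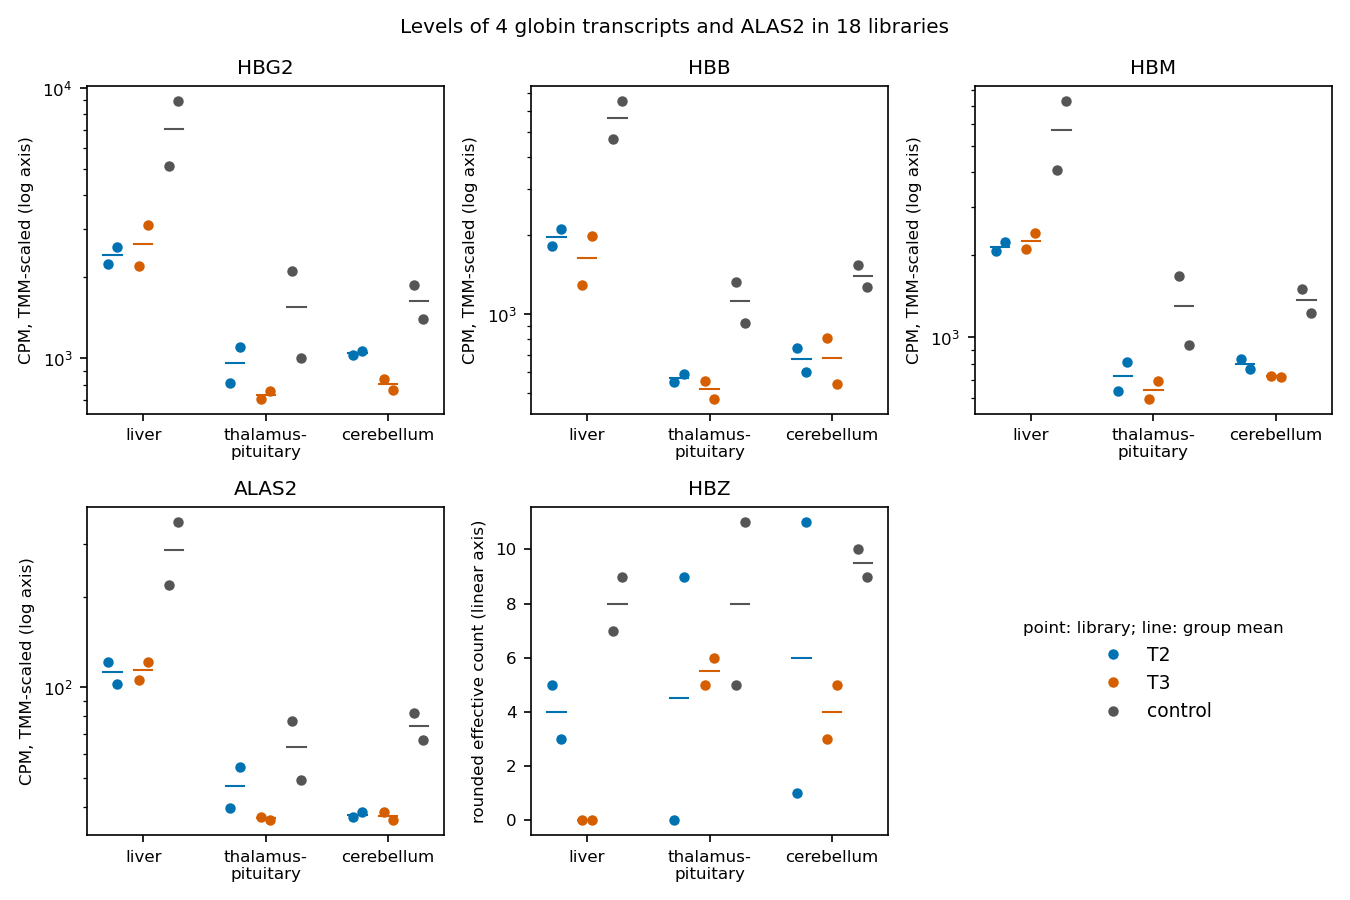
Levels of the 5 transcripts in the 18 libraries by tissue, with T2, T3 and control from left to right, a point per library and a line at the mean of each group of 2. HBG2, HBB, HBM and ALAS2 are in TMM-scaled CPM on log axes and HBZ in rounded effective counts on a linear axis, where it does not pass 11 in any library.

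For HBG2, HBB, HBM and ALAS2 alike, control liver by TMM scaling ranked first of the 9 groups and its libraries lay above those of every other group. T2 and T3 livers followed and overlapped each other. The control groups of the cerebellum and thalamus-pituitary came next, overlapping each other, and for HBB T3 liver also overlapped both of these control groups. T3-treated thalamus-pituitary was the lowest group for all of these 4 transcripts by that scaling, with mean levels of 735.5 CPM for HBG2, 515.6 CPM for HBB, 644.1 CPM for HBM and 36.6 CPM for ALAS2. Its libraries overlapped those of the next group up for ALAS2 (T3-treated cerebellum) and for HBB (T2-treated thalamus-pituitary). By library total alone, control liver overlapped control cerebellum for all 4, HBG2 averaging 2461 CPM in control liver and 2280 CPM in control cerebellum. ALAS2 then averaged 100.2 CPM in control liver and 103.5 CPM in control cerebellum, and its lowest group was T2-treated cerebellum at 52.7 CPM.

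In liver, T2 gave fitted log2 fold changes against control of -1.37 for HBG2, -1.34 for HBB, -1.23 for HBM and -1.18 for ALAS2. With T3 they were -1.35 for HBG2, -1.73 for HBB, -1.28 for HBM and -1.29 for ALAS2. All 5 transcripts, HBZ included, had both T2 libraries and both T3 libraries below both controls. The same arrangement held for 32% of all transcripts tested for T2 and 30.1% for T3. These shares are background only, since this contrast chose the transcripts.

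Scaling by library total alone made the liver differences smaller and left all 5 transcripts lower. The log2 fold changes were then -0.76 for HBG2, -0.73 for HBB, -0.62 for HBM and -0.56 for ALAS2 with T2. With T3 they were -0.80 for HBG2, -1.16 for HBB, -0.73 for HBM and -0.73 for ALAS2. Under that scaling the median transcript was higher than in control by 0.61 (log2) with T2 and by 0.54 with T3. ALAS2 nearly touched its controls, at 78.7 and 57.7 CPM in T2 livers and 78.9 and 121.5 CPM in control livers. The 2 controls of the liver differed between themselves. The second was 1.74 times the first for HBG2, 1.40 times for HBB, 1.78 times for HBM and 1.61 times for ALAS2. With each library left out in turn, the smallest T2 differences by TMM were -1.05 for HBG2, -1.19 for HBB, -0.88 for HBM and -0.92 for ALAS2. For T3 the smallest were -1.04 for HBG2, -1.44 for HBB, -0.94 for HBM and -1.03 for ALAS2.

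In the cerebellum, the log2 fold changes with T2 were -0.64 for HBG2, -1.07 for HBB, -0.77 for HBM and -0.98 for ALAS2. With T3 they were -1.02 for HBG2, -1.04 for HBB, -0.91 for HBM and -0.99 for ALAS2. Both T2 libraries were below both controls for 4 of the 5 transcripts, HBZ being the exception, against 17.5% of all transcripts tested. Both T3 libraries were below both controls for all 5, against 21.4%. Without the first control, HBG2 was at -0.42 with T2. Library total alone gave nearly the same ratios of means in this tissue, 0.481 to 0.643 with T2 and 0.493 to 0.542 with T3.

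In the thalamus-pituitary, the log2 fold changes with T2 were -0.68 for HBG2, -0.97 for HBB, -0.83 for HBM and -0.42 for ALAS2. With T3 they were -1.06 for HBG2, -1.10 for HBB, -0.99 for HBM, -0.77 for ALAS2 and -0.18 for HBZ. The groups did not overlap for 2 of the 5 transcripts with T2, HBB and HBM, against 18.7% of all transcripts below control in both libraries, and for 4 with T3, against 20.7%. These differences leaned on the first control, which was 2.09 times the second for HBG2, 1.44 times for HBB, 1.78 times for HBM and 1.57 times for ALAS2. Without it, the T2 differences were -0.07 for HBG2, -0.69 for HBB, -0.36 for HBM and -0.06 for ALAS2, and the T3 differences were -0.44 for HBG2, -0.82 for HBB, -0.52 for HBM and -0.41 for ALAS2. With each library left out in turn, the T2 differences ranged between -1.12 and -0.07 for HBG2 and between -1.20 and -0.69 for HBB. For HBM the range was -1.19 to -0.36, and for ALAS2 -0.70 to -0.06.

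**Figure D2:**
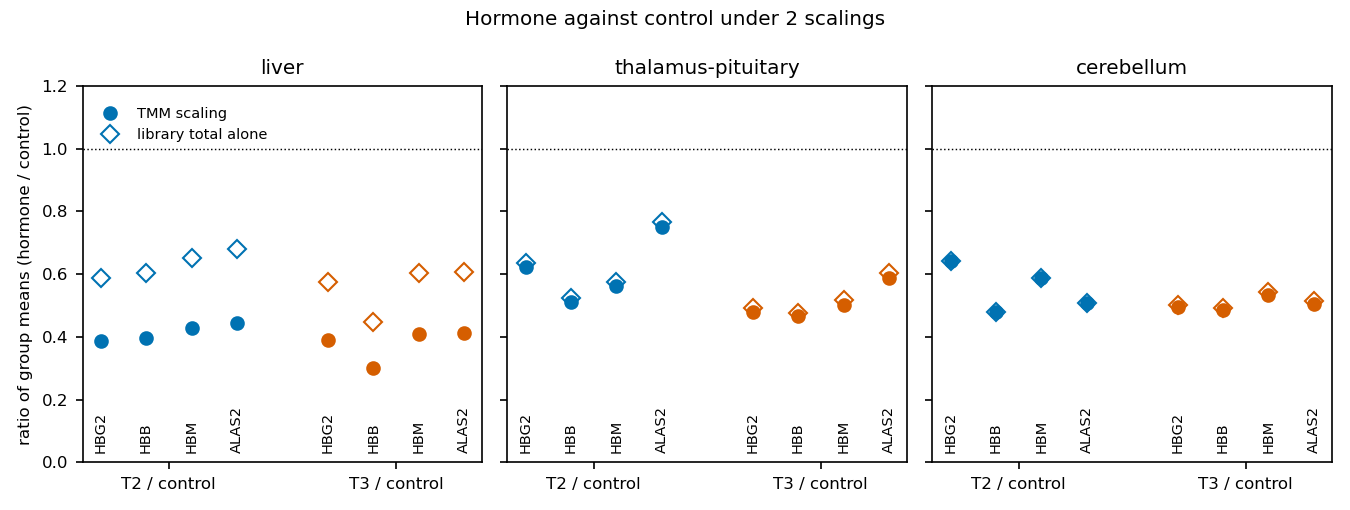
Ratio of the group means, hormone over control, for HBG2, HBB, HBM and ALAS2 in each tissue, with filled circles for TMM scaling and open diamonds for library total alone; the dotted line marks a ratio of 1. The 2 scalings nearly coincide in the CNS, whereas in liver the ratios for T2 are 0.387 to 0.443 by TMM and 0.589 to 0.681 by library total.

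Markers of red cells and of other cell types were described in the same contrast. Their lists were drawn from transcripts that the study had listed as changed in these libraries, so their counts repeat that choice and are given with no test. Of 8 transcripts of the red cell membrane and erythroid cells, such as ANK1 and EPB41, which anchor the membrane skeleton, 7 had both T2 livers below both control livers and 8 had both T3 livers below them, beside the 32% and 30.1% of all transcripts given above. The median log2 fold change of the list was -1.65 with T2 and -1.24 with T3, against 0.01 and -0.02 for all transcripts. Of 10 transcripts for haem and iron handling, 8, such as HPX, which binds free haem, were below the controls without overlap. The other 2, TFRC and COX15, were above them, with T2 and with T3 alike. By library total alone this list summed to 6864 and 8534 CPM in T2 livers and to 10673 and 10728 CPM in T3 livers. The control livers then stood at 9729 and 16968 CPM, so that both T3 livers lay above the first control.

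Of 13 leukocyte and thrombocyte transcripts that passed the filter on low counts, 13 were below the controls without overlap with T2 and 12 with T3, and of 6 endothelial transcripts, 6 were with each hormone. The leukocyte and thrombocyte list summed to 116 to 186 CPM in hormone-treated livers, against 679 and 1975 CPM in control livers. It stayed lower by library total alone, at 65.3 to 101 CPM with hormone and 233.3 and 711.3 CPM in controls. So did the endothelial list, at 24.7 to 37.9 CPM with hormone and 66.8 and 85.1 CPM in controls. The liver list itself had 11 of 11 transcripts that passed the filter below the controls with each hormone, and summed to 36726 to 57786 CPM with hormone, against 131108 and 133684 CPM in controls. Exocrine pancreas transcripts summed to 37047 to 63963 CPM with hormone and to 97126 and 247298 CPM in controls. By library total alone, the red cell list summed to 355.6 and 200.5 CPM in T2 livers, 213.1 and 222.7 CPM in T3 livers, and 317.1 and 332.9 CPM in control livers, so that the first T2 liver lay above both controls. The liver list stayed lower by that scaling, at 23805 to 31434 CPM with hormone and 45081 and 48154 CPM in controls, whereas exocrine pancreas transcripts touched, at 24013 to 33404 CPM with hormone and 33397 and 89079 CPM in controls. The part of these cell types in the globin difference was not tested.

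In the CNS the red cell list was divided. Both hormone libraries were below both controls in the thalamus-pituitary for 4 of its 8 transcripts under T2 and 3 under T3, and in the cerebellum for 2 under T2 and 5 under T3. Of all transcripts, 18.7% (T2) and 20.7% (T3) did so in the thalamus-pituitary and 17.5% (T2) and 21.4% (T3) in the cerebellum. Its median log2 fold change lay between -0.26, with T3 in the cerebellum, and 0.14, with T2 in the cerebellum. Several of its genes, ANK1 and EPB41 among them, are also known from neurons in mammals. CYGB, which encodes cytoglobin, a globin found outside red cells, did not separate from the controls in either CNS tissue with either hormone. In liver it was below both controls with each hormone.

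T2 was compared with T3 directly in each tissue, as a single pair of compounds at the same dose and time. None of the 4 transcripts tested passed an adjusted p of 0.05 in any tissue by edgeR's quasi-likelihood test, where 0.0874% of all transcripts passed in liver, 0.0541% in the thalamus-pituitary and 0.0128% in the cerebellum. At an unadjusted p of 0.05 by that test, HBG2 passed in the thalamus-pituitary and in the cerebellum, and none of the 4 passed in liver. The share of all transcripts passing at that unadjusted threshold is not given, so these passes are not set against a background. edgeR's exact test called 0 of them in each tissue, with no share of all transcripts at hand for that test. DESeq2 called 1, HBG2 in the cerebellum, where it called 0.344% of all transcripts. DESeq2 called 1.73% of all transcripts in liver and 0.337% in the thalamus-pituitary, with none of these 4 among them.

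HBG2 in the cerebellum had the smallest unadjusted p. It was higher with T2 than with T3 by 0.38 on the log2 scale (SE 0.09, 95% confidence interval 0.15 to 0.61), with both T2 libraries above both T3 libraries. The edgeR quasi-likelihood test gave an adjusted p of 0.683 (unadjusted 0.0061) and DESeq2 an adjusted p of 0.0148. Across all alternatives the adjusted p ranged between 0.0148 and 0.999. In the thalamus-pituitary HBG2 was higher with T2 by 0.37 (95% interval 0.0047 to 0.73, edgeR adjusted p 0.846), again without overlap, and ALAS2 by 0.34 (-0.06 to 0.75, adjusted p 0.867).

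In liver the log2 fold changes of T2 over T3 were -0.02 for HBG2 (95% interval -0.56 to 0.51), 0.38 for HBB (-0.22 to 0.99), 0.05 for HBM (-0.33 to 0.43) and 0.10 for ALAS2 (-0.37 to 0.56). In the thalamus-pituitary they were 0.13 for HBB (-0.12 to 0.38) and 0.15 for HBM (-0.19 to 0.50). In the cerebellum they were -0.02 for HBB (-0.52 to 0.49), 0.14 for HBM (-0.09 to 0.37) and 0.01 for ALAS2 (-0.32 to 0.35). Both T2 libraries were above both T3 libraries for 1 of the 4 tested transcripts in liver, 2 in the thalamus-pituitary and 2 in the cerebellum, where 21.8%, 18.1% and 18.8% of all transcripts showed that order. The 1 in liver was HBB, by the factors of the 4 libraries compared. By the factors of all 18 libraries its groups overlapped, the first T2 liver at 1821 CPM and the second T3 liver at 1983 CPM. By those factors the T2 mean in liver was also below the T3 mean for HBM (2142 and 2249 CPM) and ALAS2 (111.9 and 113.7 CPM). None of the 4 tested transcripts had both T2 libraries below both T3 libraries. With 2 libraries each, the widest of these intervals reached 0.99 on the log2 scale, for HBB in liver, so that a difference of that size is not shown to be absent.

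**Figure D3:**
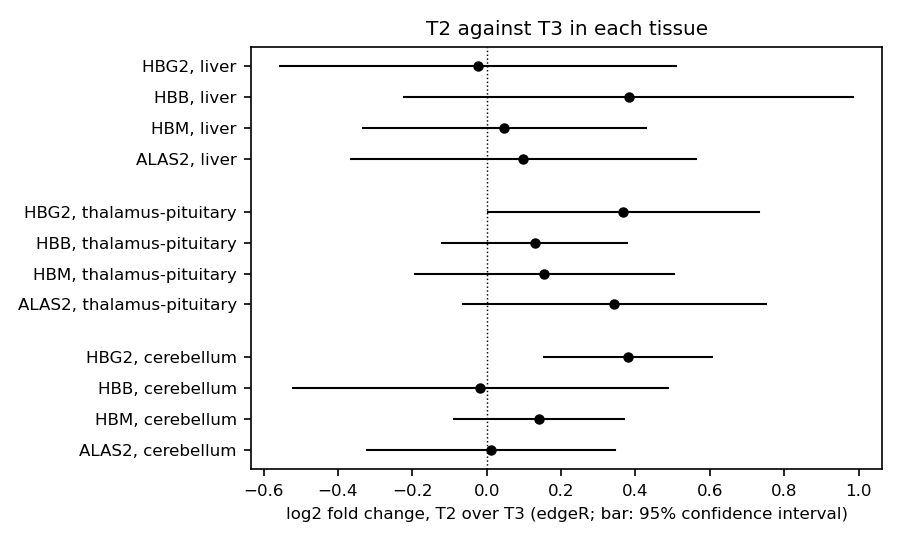
Fitted log2 fold change of T2 over T3 for HBG2, HBB, HBM and ALAS2 in each tissue, with bars for the 95% confidence interval from edgeR and a dotted line at 0. The estimates lie between -0.02 and 0.38, and the interval leaves out 0 for HBG2 in the thalamus-pituitary and the cerebellum before adjustment.

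Between tissues, averaged over T2, T3 and control, 4 of the 5 transcripts were higher in liver than in the cerebellum and than in the thalamus-pituitary. Over the cerebellum the log2 differences by edgeR's quasi-likelihood test were 1.68 for HBG2 (SE 0.19, adjusted p 1.86e-06), 1.61 for HBB (SE 0.16, 3.53e-07), 1.71 for HBM (SE 0.17, 3.07e-07) and 1.71 for ALAS2 (SE 0.15, 6.92e-08). Over the thalamus-pituitary they were 1.78 for HBG2, 1.93 for HBB, 1.83 for HBM and 1.70 for ALAS2, with adjusted p between 5.04e-08 and 9.32e-07. HBZ was at -0.91 (adjusted p 0.336) against the cerebellum and -0.55 (adjusted p 0.461) against the thalamus-pituitary, averages that include T3 livers with 0 counts. In the control libraries alone HBZ stood the other way by TMM scaling, at 1.76 (edgeR adjusted p 0.128) and 2.56 (adjusted p 0.0415). By library total alone HBZ averaged 2.38 CPM in control liver, below the 2.75 CPM of control cerebellum and above the 1.56 CPM of control thalamus-pituitary. By TMM scaling 28.5% of all transcripts were higher in liver than in the cerebellum and 30.2% than in the thalamus-pituitary. HBG2, HBB, HBM and ALAS2 stood between the 82.4th and 84.9th percentile of all differences.

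The excess in liver depended on the scaling. By library total alone, the differences from the cerebellum were 0.13 for HBG2, 0.07 for HBB, 0.17 for HBM and 0.17 for ALAS2, and 0 of them passed the test for being higher, where 13.3% of all transcripts were called higher in liver. Against the thalamus-pituitary HBB alone passed, at 0.33 (adjusted p 0.0461, 12.8% of all transcripts being called higher), beside 0.19 for HBG2, 0.24 for HBM and 0.10 for ALAS2. HBZ was lower in liver than in the cerebellum by that scaling, at -2.07 (edgeR adjusted p 0.0311), but stood 0.12 above the median transcript. The median transcript stood at -0.75 (liver minus cerebellum) and -0.71 (liver minus thalamus-pituitary) by TMM, and at -2.19 and -2.25 by library total. Relative to that median, HBG2, HBB, HBM and ALAS2 were higher in liver by 2.26 to 2.58 under library total. By that scaling the median levels of the 6 libraries of a tissue were 1570 CPM in liver, 1328 CPM in the thalamus-pituitary and 1467 CPM in the cerebellum for HBG2.

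No difference was detected between the 2 CNS tissues. The log2 difference of thalamus-pituitary minus cerebellum was -0.11 for HBG2, -0.32 for HBB (95% interval -0.65 to 0.02, edgeR adjusted p 0.128), -0.12 for HBM, 0.02 for ALAS2 and -0.36 for HBZ. None of the 5 passed the edgeR quasi-likelihood test, where 39.5% of all transcripts did. The count was also 0 with DESeq2, for which that share is not given. The smallest unadjusted p by the edgeR test was 0.0624, for HBB.

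The proportions of the transcripts within a library do not depend on the scaling. The ratio of ALAS2 counts to those of the 4 globins together lay between 0.0142 and 0.0216 in all 18 libraries. It was 0.0199 and 0.0148 in T2 livers, 0.0189 and 0.0163 in T3 livers, and 0.0158 and 0.0155 in control livers. HBG2 over HBB lay between 1.04 and 1.88, and HBM over HBB between 0.877 and 1.62. The first T3 liver had the highest HBG2 over HBB ratio in that tissue, at 1.70, followed by the second at 1.56, against 1.22 and 1.22 in T2 livers and 1.102 and 1.363 in control livers. The CNS tissues leaned the other way, with overlap. In the thalamus-pituitary this ratio was 1.28 and 1.60 with T3 and 1.48 and 1.88 with T2. In the cerebellum it was 1.04 and 1.41 with T3 and 1.39 and 1.78 with T2. Reads from near-identical globin copies are shared out by the quantification, so the split between single globins is less certain than their sum.

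The ratios were compared between tissues by exact two-sided permutation tests of 6 libraries against 6, and none of 12 tests passed after Benjamini-Hochberg adjustment. The log2 ratio of ALAS2 to the globins averaged -5.90 ± 0.17 in liver, -5.75 ± 0.18 in the thalamus-pituitary and -5.94 ± 0.11 in the cerebellum (SD, n = 6 each). The thalamus-pituitary was higher than the cerebellum by 0.19 (exact permutation p = 0.0519, adjusted p = 0.455). HBG2 over HBB averaged 0.43 ± 0.24 in liver, 0.55 ± 0.27 in the thalamus-pituitary and 0.38 ± 0.28 in the cerebellum on that scale, differing by less than the spread between libraries. HBZ over HBB, with 0.5 added to each count, averaged -11.15 ± 1.87 in liver and -9.54 ± 0.75 in the cerebellum (exact permutation p = 0.0758, adjusted p = 0.455, n = 6 each). Libraries of 3 treatments enter each tissue here, so that the SD includes any difference between treatments.

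**Figure D4:**
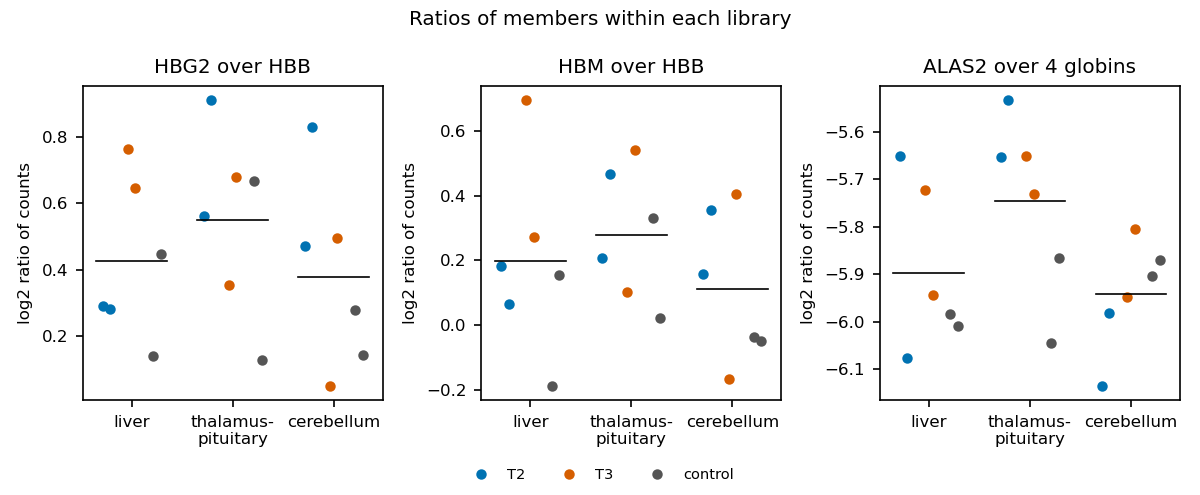
Log2 ratio of HBG2 to HBB, of HBM to HBB and of ALAS2 to the 4 globins in each of the 18 libraries by tissue, with T2, T3 and control from left to right and a line at the tissue mean. The mean ratio of ALAS2 to the globins is -5.90 in liver, -5.75 in the thalamus-pituitary and -5.94 in the cerebellum.

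HBG2, HBB, HBM and ALAS2 also had similar profiles from library to library. When each transcript's log2 CPM was set to its own mean over the 18 libraries, the root-mean-square difference from the mean profile of HBG2, HBB and HBM was 0.11 for HBG2, 0.16 for HBB and 0.09 for HBM, which enter that mean, and 0.17 for ALAS2, which does not. HBZ was left out of the mean after its counts had been seen. Among the 19221 transcripts compared, the nearest that was not a globin or ALAS2 was TUBB1, at 0.30, a beta-tubulin of platelets and their precursors in mammals. TUBB1 measured 21.9 and 21.9 CPM in T2 livers, 20.9 and 22.2 CPM in T3 livers, and 51.8 and 79.0 CPM in control livers. In the CNS it measured between 5.4 and 9.1 CPM with hormone and between 8.6 and 12.1 CPM in controls.

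With HBZ kept in the mean profile of 4 globins, ALAS2 was at 0.31 and the nearest others with a symbol were FLOT1, a membrane scaffold protein, at 0.39, MBD2, which binds methylated DNA, at 0.41 and BNIP1, a vesicle fusion protein, at 0.42. When profiles were centred within each tissue, TUBB1 came first at 0.27 and AHCY, which breaks down S-adenosylhomocysteine, stood at 0.30, with ALAS2 at 0.26. These distances are descriptions over 18 libraries that share treatments and scaling.

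**Figure D5:**
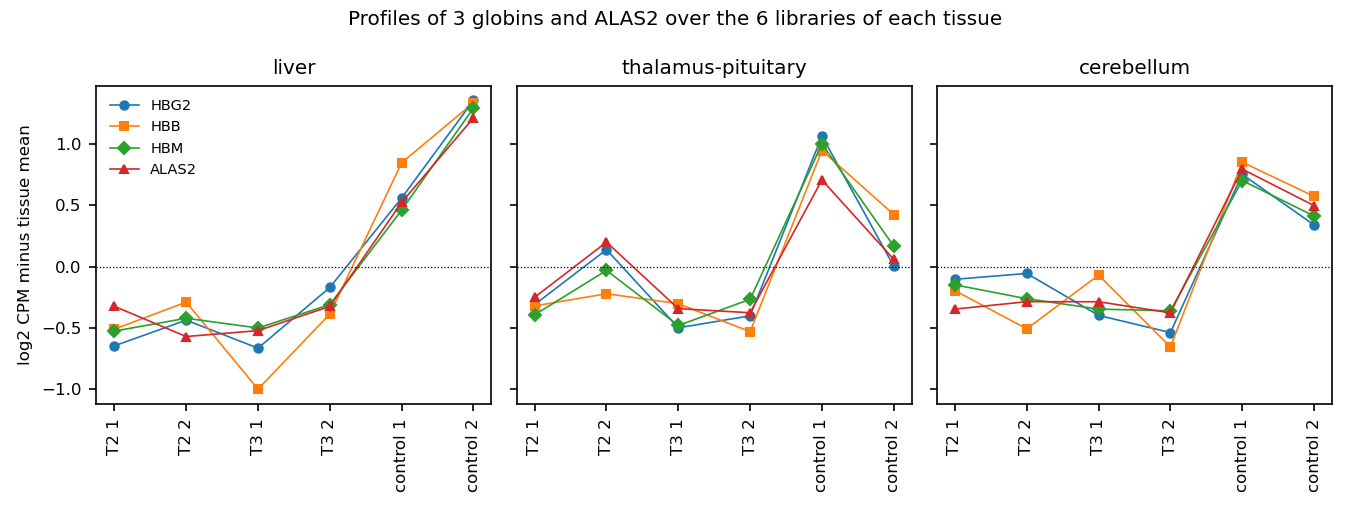
Log2 CPM of HBG2, HBB, HBM and ALAS2 minus the mean of each over the 6 libraries of a tissue, with a line per transcript and the T2, T3 and control libraries from left to right; lines only join the points of a transcript. The 4 lines run close together in each tissue, with the highest points in the second control of the liver and in the first control of both CNS tissues.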

How the data were processed

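RNA-seq was done on 2 samples per group in 3 tissues. After read cleaning, the authors aligned reads to tilapia coding sequences with Bowtie 1.1.2 and quantified transcripts with eXpress, depositing 1 effective count (an estimated count corrected for usable transcript length) per transcript and library, without normalisation. The 6 deposited tables of the authors' edgeR comparisons hold log2 fold changes, log2 CPM, p-values and false discovery rates and were not used.

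Effective counts were rounded to whole numbers. Transcripts passing filterByExpr (minimum count 10, minimum total 15) were scaled by TMM and fitted with edgeR 4.0.16 (R 4.3.3), as a quasi-likelihood test with Benjamini-Hochberg adjustment over all transcripts tested. T2 against T3 and hormone against control used 4 libraries, and tissues were compared in 1 fit of 18 libraries and 9 groups. Ratios were tested in scipy 1.17.1. Alternatives included DESeq2 1.42.0, edgeR's exact test, RLE factors, library total alone, no filter, unrounded counts, scaling without the 5 transcripts, a replicate block and leaving out each library. The quasi-likelihood tests were checked on simulated data with large planted changes in well counted transcripts. Apart from those changes the simulated libraries had a common make-up. That check does not cover differences as small as those between T2 and T3, or counts as low as those of HBZ. Intervals at 95% cover the spread between samples and counting error together.

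The 5 transcripts, the marker lists and the tests were chosen with earlier results of these data known. The named genes are the 5 transcripts, list members needed beside them, and the 5 transcripts nearest to the mean globin profile, of which those with a symbol are named. Symbols came from the part of the study's supplement held here, which pairs 1646 transcripts with a symbol. Sequences, transcript lengths and positions were not used here, so a ratio of 2 transcripts was compared only across libraries and does not say which is the more abundant.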

Additional observations from a re-analysis of the deposited data

How the results depend on the processing

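With 2 libraries per group, p-values measure only the spread between these samples. Of the numbers of transcripts called between T2 and T3 or between tissues, 3 moved, under 2 alternatives that kept every library: DESeq2 called 1 transcript between T2 and T3 in the cerebellum, against 0 by edgeR, and scaling by library total left 0 transcripts higher in liver than in the cerebellum and 1 higher than in the thalamus-pituitary, against 4 and 4. The cause of the DESeq2 call was not tested. HBZ, with 11 counts at most, is limited by depth.

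The replicate numbers were not used to pair the samples in the main fits. The correlations of deviations between libraries of the same number lay between -0.16 and 0.23. The highest was between control cerebellum and control thalamus-pituitary. With 2 libraries per group, these values cannot tell whether libraries of the same number share fish. With a replicate block, the count of calls between T2 and T3 stayed at 0 in each tissue, and HBB in the cerebellum turned to 0.0040. The share of all transcripts called with that block is not given.

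By library total, T2 over T3 was -0.0160 for ALAS2 in the cerebellum and 0.032 for HBG2 in liver. In the controls alone and by TMM scaling, HBZ was at 1.76 (liver minus cerebellum) and 2.56 (liver minus thalamus-pituitary). ALAS2 was then at -0.24 (thalamus-pituitary minus cerebellum).

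Leaving out 1 library at a time, the count of transcripts lower with T2 in the thalamus-pituitary ranged between 2 and 5. The 5 came without the second T2 library. With 1 library left in a group, groups fail to overlap more easily. The share of all transcripts in that order is not given for these smaller groups. The rise to 5 is therefore not firmer evidence than the count of 2 with every library kept. T2 over T3 ranged between -0.28 and 0.30 for HBB and -0.028 and 0.050 for ALAS2 in the cerebellum, between -0.031 and 0.33 for HBM in the thalamus-pituitary, and in liver between -0.26 and 0.23 for HBG2, -0.056 and 0.13 for HBM and -0.055 and 0.23 for ALAS2. Thalamus-pituitary minus cerebellum ranged between -0.32 and 0.035 for HBG2, -0.11 and 0.11 for ALAS2 and -1.92 and 0.052 for HBZ. HBZ ranged between -0.87 and 1.01 for liver minus thalamus-pituitary and between -0.84 and 0.60 for T3 against control in the thalamus-pituitary.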
